A study of Mus musculus with 4 samples.

Results

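Pericytes of the mouse dorsal root ganglion (DRG) were selected from single cell RNA-seq libraries by a gate on the transcripts of 8 genes, and 201 cells met it out of 6095 cells within the quality limits (3.30%) and 6975 deposited cells. The libraries were made in droplets, where a barcode marks the cell and a unique molecular identifier (UMI) marks each RNA molecule caught, so that UMIs count molecules. A cell was taken as a pericyte when *Kcnj8*, *Abcc9* and *Higd1b* together had at least 2 UMIs, *Rgs5* at least 2 UMIs, *Myh11* at most 1 UMI, and *Pecam1*, *Cldn5* and *Cdh5* together at most 3 UMIs. The limits on all cells were 600 to 15000 UMIs, 500 to 4000 detected genes and less than 10% of UMIs from mitochondrial genes. Whole ganglia of C57BL/6 mice aged 8 to 12 weeks, females according to the methods, were dissociated with papain and collagenase, sorted for live cells and loaded on the 10x Chromium system. The 4 libraries comprised 2 from uninjured ganglia (control 1 and control 2) and 2 from ganglia taken 3 days after sciatic nerve crush (injury 1 and injury 2), so that n is 2 libraries per condition. Each library pooled the cells of several mice, and the labels name no allele or transgene. The labels name L4 ganglia, whereas the methods name L4 and L5, and the numbers of the first pair of libraries were given here because their labels carry none. The gate held 69 and 17 cells of control 1 and control 2, and 97 and 18 cells of injury 1 and injury 2. In the values that follow, the 4 libraries are always given in that order.

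Pericytes are mural cells embedded in the basement membrane of capillaries and small venules, where they contact the endothelium directly. Endothelial PDGF-B acting on the receptor *Pdgfrb* recruits and maintains them, *Notch3* signalling keeps the mural fate, and larger vessels carry vascular smooth muscle cells in their place. *Kcnj8* and *Abcc9* encode the pore (Kir6.1) and the sulfonylurea receptor (SUR2) of the vascular ATP-sensitive potassium channel, which couples the metabolic state of the tissue to vessel tone. In peripheral ganglia, capillaries with pericytes run between the neuronal cell bodies.

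The genes that chose the cells are described first, without a test. *Rgs5*, a GTPase activator that limits signalling through G protein-coupled receptors in mural cells, had a median of 14 UMIs per pericyte, from 2 to 79. *Kcnj8*, *Abcc9* and *Higd1b*, the last a mitochondrial protein of the hypoxia-inducible domain family, had a median of 5 UMIs together, from 2 to 19. *Higd1b* was at 0 in 24 of the 201 cells, *Kcnj8* in 63 and *Abcc9* in 142, so *Higd1b* was detected in the most cells. Summed over the pericytes of each library, *Rgs5* stood at 9582, 4779, 6192 and 3156 CPM (UMIs of the gene scaled to a fixed total). *Higd1b* stood at 1672, 757, 1283 and 336 CPM. *Kcnj8* was at 796, 394, 670.4 and 317 CPM and *Abcc9* at 134, 126, 119 and 125 CPM, the latter being nearly the same in the 4 libraries. *Rgs5*, *Higd1b* and *Kcnj8* were lower in control 2 and injury 2 than in control 1 and injury 1, an order that for *Rgs5* and *Higd1b* did not hold without the mixed cells described below. At the edge of the gate, 43 cells had exactly 2 UMIs of the 3 channel and *Higd1b* genes, and 37 cells with 1 UMI lay just outside. For *Myh11*, the smooth muscle myosin, 63 cells with 1 UMI lay inside and 25 cells with 2 UMIs outside. For the endothelial sum, 1 cell had 3 UMIs and none had 4. The cells just outside on the first limit had a *Vtn* level of 1009.7 CPM against 1568 CPM just inside. Those just outside on *Myh11* had 1397 CPM against 1486 CPM inside. Across the *Rgs5* limit *Vtn* stood at 428 CPM in 2 cells just inside and 1231 CPM in 4 cells just outside. *Vtn* was thus lower outside the first limit, nearly level across the *Myh11* limit and higher outside the *Rgs5* limit, which few cells bordered. Other genes differed too. *Dcn* stood at 2250 CPM just inside the first limit and 4441 CPM just outside. Across the *Myh11* limit *Kcnj8* stood at 458 CPM inside and 148 CPM outside, and *Acta2* at 5101 and 7123 CPM.

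The start regions of gate genes and of *Vtn* are shown because these genes were read from the same cells and because *Kcnj8* and *Abcc9* lie next to each other. The sequences are RefSeq promoters on GRCm38.p6, from 250 bases before to 50 bases after the start of the gene, on the strand of the gene. Of the genes of interest here, *Kcnj8*, *Abcc9*, *Rgs5* and *Vtn* were matched, whereas *Higd1b*, *Cox4i2*, *Ndufa4l2* and *Pdgfrb* were not. *Kcnj8* lies at chr6:142571565-142571864 and *Abcc9* at chr6:142702225-142702524, both on the minus strand, with 130360 bases between these windows. *Rgs5* lies at chr1:169655251-169655550 and *Vtn* at chr11:78498870-78499169, both on the plus strand. Capitals mark matches on either strand to TGGGAA, the core bound by the Notch effector RBPJ, to ACGTG or GCGTG, the core bound by hypoxia-inducible factors, and to TGTTTAC, a forkhead core.
Kcnj8: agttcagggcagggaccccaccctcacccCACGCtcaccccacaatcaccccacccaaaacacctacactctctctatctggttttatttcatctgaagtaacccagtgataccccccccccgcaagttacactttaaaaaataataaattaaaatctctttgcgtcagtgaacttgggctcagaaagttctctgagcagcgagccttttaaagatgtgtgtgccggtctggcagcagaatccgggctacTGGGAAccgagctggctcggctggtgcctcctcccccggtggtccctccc
Abcc9: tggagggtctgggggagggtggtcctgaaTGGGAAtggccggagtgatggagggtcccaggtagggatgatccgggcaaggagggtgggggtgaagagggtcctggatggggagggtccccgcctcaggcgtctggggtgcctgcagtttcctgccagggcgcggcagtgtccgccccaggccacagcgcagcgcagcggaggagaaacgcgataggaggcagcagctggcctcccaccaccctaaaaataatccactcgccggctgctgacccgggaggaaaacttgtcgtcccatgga
Rgs5: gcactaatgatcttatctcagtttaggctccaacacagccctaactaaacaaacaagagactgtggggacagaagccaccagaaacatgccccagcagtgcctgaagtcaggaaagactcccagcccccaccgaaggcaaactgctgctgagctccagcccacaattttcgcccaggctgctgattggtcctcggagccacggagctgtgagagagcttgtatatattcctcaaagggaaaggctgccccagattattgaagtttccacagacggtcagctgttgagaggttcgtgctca
Vtn: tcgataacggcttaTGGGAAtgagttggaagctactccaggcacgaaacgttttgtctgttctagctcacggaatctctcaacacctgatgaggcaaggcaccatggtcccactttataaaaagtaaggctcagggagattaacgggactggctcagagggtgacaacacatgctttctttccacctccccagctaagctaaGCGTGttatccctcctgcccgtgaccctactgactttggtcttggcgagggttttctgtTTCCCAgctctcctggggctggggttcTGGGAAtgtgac
The RBPJ core was found once each in the windows of *Kcnj8* and *Abcc9* and 3 times in that of *Vtn*, and a hypoxia core once each in those of *Kcnj8* and *Vtn*. None of the searched letters was found in the *Rgs5* window, and the forkhead core was found in none of the 4. Among all 32851 promoters of this length, 25.6% held the RBPJ core, 43.8% a hypoxia core and 3.65% the forkhead core, so the first pair of motifs is common in such windows. No element overlapped another.

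The pericytes had a median of 2379 UMIs (1043 to 11015) and 1234 genes. The medians by library were 2289, 3397, 2038 and 5576 UMIs, and the pericyte sums held 164472, 63401, 226735 and 104260 UMIs out of library totals of 5585909, 11210875, 11163177 and 9477167. The 4 libraries shared 20 barcode sequences over their pairs, of which 1 belonged to a pericyte. Transcripts of other cell types were not evenly spread. With lists of marker genes for satellite glia, myelinating Schwann cells, macrophages, fibroblasts, neurons and erythroid cells, 38 of the 201 pericytes carried at least 10 UMIs of a list. They are called mixed cells here. By library they were 1 of 69, 12 of 17, 12 of 97 and 13 of 18 cells, or 1.45%, 70.6%, 12.4% and 72.2%. The leading list in them was that of fibroblasts in 14 cells, satellite glia in 10, Schwann cells in 7, macrophages in 6 and erythroid cells in 1. Control 2 and injury 2 therefore stood apart from control 1 and injury 1, whatever the condition. Scrublet, a doublet caller, marked 37 of the 6975 cells (0.530%), among them 5 pericytes, all in injury 1.

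**Figure D1:**
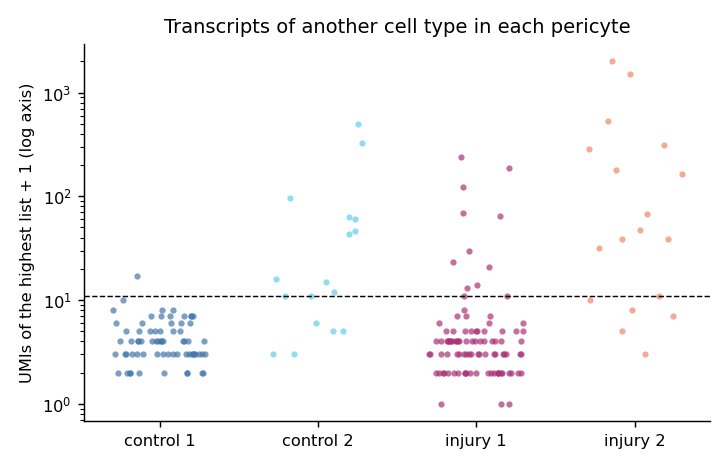
Each point is a pericyte; the vertical log axis gives the UMIs of the other-type list that was highest in that cell, plus 1, by library, and the dashed line lies at 10 UMIs. Above or on it are 1, 12, 12 and 13 cells of control 1, control 2, injury 1 and injury 2.

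The most abundant fibroblast gene in pericytes was *Gsn* in control 1 and injury 1, *Dcn* in control 2 and *Apod* in injury 2. Among satellite glial genes it was *Ednrb* in control 1 and *Fabp7* in the other libraries, and among macrophage genes it was *Lyz2* in all 4. The 8 fibroblast genes together stood at 1240.3, 15662, 1120.3 and 23806 CPM. In the unmixed cells they stood at 1215, 746, 915 and 1245 CPM, against 135313, 96628, 130717 and 102535 CPM in the fibroblast gate, which was itself chosen on 2 of the 8 genes, *Pdgfra* and *Dcn*. The defining fibroblast gene *Pdgfra* was at 0 in the pericytes of the first 3 libraries. The 8 satellite glial genes stood at 91.2, 2208, 719 and 3002 CPM and the 8 Schwann genes at 584, 994, 1795 and 3645 CPM. The 10 macrophage genes stood at 182, 1703, 1685 and 1985 CPM, with *Ptprc* at 0 in control 1 and control 2. The 5 erythroid genes stood at 0, 78.9, 8.82 and 19413 CPM, the last value coming mainly from 1 cell with 2006 such UMIs. The 8 neuronal genes stayed at 128, 237, 101 and 201 CPM, with at most 4 UMIs in any pericyte. Pooled over the libraries, *Vtn* stood at 819.9 CPM in mixed and 2544 CPM in unmixed cells, and *Rgs5* at 2986 and 8073 CPM, with 25 of the 38 mixed cells in control 2 and injury 2. By library, *Vtn* stood at 2221, 1057, 3132 and 1201 CPM in the unmixed cells and 2195, 1073, 2779 and 556 CPM in all pericytes. *Rgs5* stood at 9476, 6839, 6854 and 8673 CPM in the unmixed cells. Leaving out the mixed cells left 68, 5, 85 and 5 pericytes, and several results below are given again for these.

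The share of pericytes among the cells within the limits was 5.30% in control 1 (exact 95% binomial interval 4.15 to 6.66%) and 1.27% in control 2 (0.740 to 2.02%). After injury it was 4.08% in injury 1 (3.32 to 4.96%) and 1.67% in injury 2 (0.994 to 2.63%). The intervals cover counting error only. Each numbered pair lay together and the conditions overlapped, with the highest and the lowest share both in control. The mean was 3.29% ± 2.85 in control and 2.88% ± 1.70 after injury (SD, n = 2 libraries each), a difference of -0.409 percentage points that was smaller than the spread between the libraries (exact permutation test, two-sided, p = 1.0; 2 libraries against 2 cannot go below 0.33). Taken by number, injury 1 differed from control 1 by -1.22 points and injury 2 from control 2 by 0.405 points. Without control 1 the difference was 1.61 points, and without injury 2 it was 0.795 points, so its sign rested on the libraries included. Among the pericytes, smooth muscle cells and endothelial cells of each library combined, pericytes made up 42.6%, 8.21%, 37.5% and 15.4%. Dissociation and sorting can change such shares, and their part in them was not tested.

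**Figure D2:**
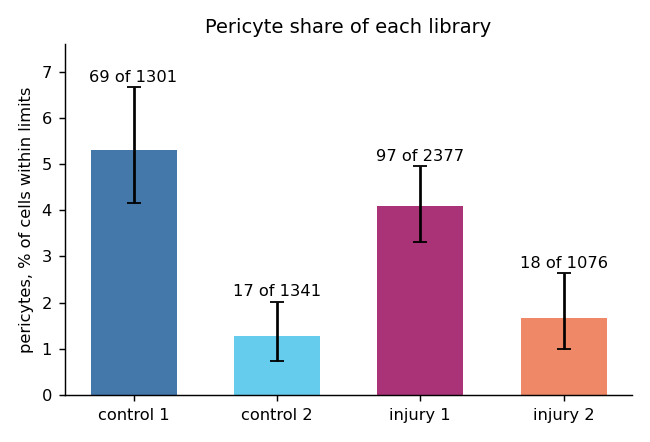
Bars give the percentage of cells within the limits that met the pericyte gate in each library, with exact 95% binomial intervals and the counts above them. Control 1 and injury 1 lie at 5.30% and 4.08%, control 2 and injury 2 at 1.27% and 1.67%.

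To see how the pericytes differ from their neighbours in the vessel wall and the stroma, 3 further gates were set on the same libraries. The smooth muscle gate (at least 3 *Myh11* UMIs) held 44, 20, 50 and 3 cells, the endothelial gate (at least 4 UMIs of *Pecam1*, *Cldn5* and *Cdh5*) 49, 170, 112 and 96 cells, and the fibroblast gate (at least 2 *Pdgfra* and 5 *Dcn* UMIs) 29, 27, 17 and 49 cells. All 3 were limited to cells with at most 1 UMI of *Kcnj8*, *Abcc9* and *Higd1b*. UMIs were summed per library and gate and compared by the quasi-likelihood test of edgeR, in a model that also held a term for the library, and a call needed an adjusted p (Benjamini-Hochberg) under 0.05. The smooth muscle sum of injury 2 was left out for its 3 cells, so n is 3 libraries for smooth muscle and 4 for the others. The gate genes were left out of every count. Other genes were not used by the rule but were read from the same cells, and a gene that accompanies the gate genes differs between gates for that reason, so these tests give the size of the differences and are not evidence for the name of the cells.

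Of 38 pericyte markers that the gate did not use, 31 were abundant enough to be tested. Against endothelial cells 30 of them were higher in pericytes and none was lower, with a median log2 fold change of 5.49, where 20.1% of all 3840 genes were higher and 21.4% lower around a median of 0.04. Against fibroblasts 19 were higher and 1 lower (median 2.1003; 22 and 2 without the mixed cells), where 12.2% of 3838 genes were higher and 13% lower around a median of 0.05. Against smooth muscle 14 were higher and none was lower (median 0.52), where 5.42% of 3840 genes were higher and 6.2% lower around a median of 0.09. The count of higher markers against smooth muscle was 7 without control 1 and 8 without injury 1. Without the mixed cells 12 were higher and 2 lower, and with a smooth muscle gate that set no limit on *Kcnj8*, *Abcc9* and *Higd1b* 13 were higher and 2 lower, the lower ones being *Mcam* and *Gucy1a3* in both. The member lower than in fibroblasts was *Foxd1*. The list was chosen with earlier results of these data known, so these counts are not evidence for the name of the cells. Detection of its members was uneven. UMIs of *Vtn* were found in 88.1% of the pericytes, those of *Cspg4* and *Anpep* in 12.9% and 15.9%.

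*Vtn* encodes vitronectin, an adhesive plasma and matrix protein that pericytes secrete. It stood at 2195, 1073, 2779 and 556 CPM in pericytes, 198, 13.5 and 119 CPM in the 3 smooth muscle sums, 4.90, 1.12, 6.62 and 8.91 CPM in endothelial cells and 253, 324, 740.3 and 269.9 CPM in fibroblasts. Every pericyte sum lay above the smooth muscle and endothelial sums, whereas injury 2 with 556 CPM lay within the range of the fibroblasts. The difference was large against smooth muscle (log2 fold change 3.87 ± 0.45, adjusted p = 5.22e-05) and against endothelium (log2 fold change 7.87 ± 0.51, adjusted p = 1.29e-08). In 96 cells that met the pericyte gate except for having over 1 *Myh11* UMI, *Vtn* stood at 511 CPM over the pooled libraries. The pooled pericytes stood at 1999 CPM. Those 96 cells were outside the smooth muscle gate as well, through its limit on *Kcnj8*, *Abcc9* and *Higd1b*. After thinning every cell to 1000 UMIs, *Vtn* was found in 72.7% of pericytes, 12.4% of smooth muscle cells, 23.5% of fibroblasts and 0.488% of endothelial cells. Without thinning the shares were 88.1%, 27.4%, 54.9% and 2.11%, at median depths of 2379, 3405, 4697 and 4531 UMIs.

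*Pdgfrb*, the PDGF-B receptor of mural cells, stood at 413, 394, 313 and 201 CPM in pericytes and 191, 94.8 and 178 CPM in smooth muscle. It was higher in pericytes in each of the 3 libraries with both sums (log2 fold change 0.99 ± 0.28, adjusted p = 0.0333), but without the mixed cells the adjusted p was 0.057. In fibroblasts it was at 45.6 ± 11.6 CPM and in endothelial cells at 1.56 ± 2.11 CPM (SD, n = 4 libraries). *Heyl*, a transcription factor downstream of Notch, was at 213, 173, 256 and 192 CPM in pericytes and 72.5, 67.7 and 80.9 CPM in smooth muscle (log2 fold change 1.48 ± 0.35, adjusted p = 0.0113). The calls of *Pdgfrb* and *Heyl* against smooth muscle did not both hold without control 1, as the count of signalling genes below shows. For the receptor *Notch3* itself no difference between the mural gates passed the test, at 385 ± 174 CPM in pericytes (SD, n = 4) and 356 ± 121 CPM in smooth muscle (n = 3; log2 fold change 0.29 ± 0.33, adjusted p = 0.671). Its counts in endothelial cells were 3 UMIs over all 4 libraries, against 245 in pericytes, a ratio of 309-fold, with an exact 95% counting interval of 105 to 1509. This interval, like the counting intervals given below, treats pooled UMIs as independent and leaves out the spread between cells and libraries. *Des* (desmin, the muscle intermediate filament) likewise gave no call, with 412 ± 239 and 393 ± 121 CPM in pericytes and smooth muscle (log2 fold change 0.17 ± 0.28, adjusted p = 0.778). *Cspg4*, which encodes the NG2 proteoglycan long used to stain pericytes, was a low transcript here, with 85.1, 15.8, 52.9 and 9.59 CPM in pericytes and 79.0, 40.6 and 80.9 CPM in smooth muscle (log2 fold change -0.68 ± 0.62, adjusted p = 0.582).

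**Figure D3:**
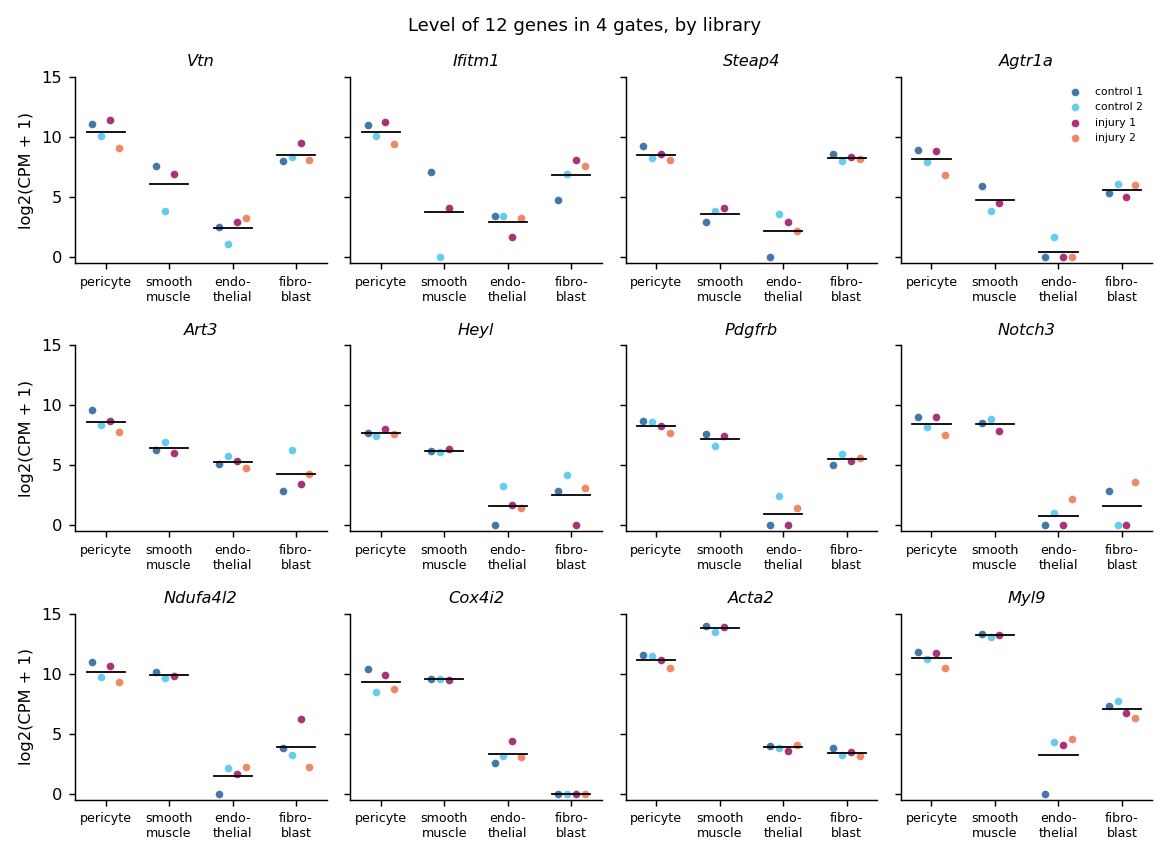
Panels give log2(CPM + 1) of 12 genes in the UMI sums of pericytes, smooth muscle, endothelial cells and fibroblasts; points are libraries and bars their means. Vtn, Ifitm1, Steap4, Agtr1a, Art3 and Heyl are higher in pericytes than in smooth muscle, whereas Notch3, Ndufa4l2 and Cox4i2 overlap between the mural gates and Acta2 and Myl9 are higher in smooth muscle.

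The genes that set pericytes apart from smooth muscle most, among those at 100 CPM or more in the pericytes of every library, were each higher in pericytes in 3 of 3 libraries. *Steap4*, a metalloreductase, stood at 602, 299.7, 393 and 269 CPM in pericytes and 6.59, 13.5 and 16.2 CPM in smooth muscle (log2 fold change 4.98 ± 0.45, adjusted p = 4.48e-06). Fibroblasts carried *Steap4* at 314 ± 60.3 CPM, a difference from pericytes that did not pass the test (log2 fold change 0.14 ± 0.23, adjusted p = 0.713). *Ifitm1*, an interferon-inducible membrane protein, stood at 2104, 1104, 2474 and 700.2 CPM in pericytes and 138, 0 and 16.2 CPM in smooth muscle (log2 fold change 4.80 ± 0.72, adjusted p = 0.000363), and was also higher in pericytes than in fibroblasts (log2 fold change 3.15 ± 0.55, adjusted p = 0.000577) and endothelial cells (log2 fold change 7.24 ± 0.68, adjusted p = 5.10e-07). It was thus a gene that separated pericytes from all 3 gates. *Fhl2*, a LIM domain cofactor, had 107 UMIs in the pericytes and 1 in the smooth muscle of the same 3 libraries, a ratio of 96.8-fold, with an exact 95% counting interval of 17.0 to 3857. *Pltp*, a phospholipid transfer protein, was at 333 ± 136 CPM against 10.6 ± 13.9 (log2 fold change 4.84 ± 0.44, adjusted p = 4.38e-06), but it was higher still in endothelial cells, with 623 CPM against 381 CPM in pericytes over the pooled libraries. Ceruloplasmin (*Cp*) was at 313 ± 80.0 against 34.9 ± 7.55 CPM (log2 fold change 3.07 ± 0.37, adjusted p = 6.23e-05). Further leading genes were *Rgs16*, *Ccl11*, *Tmem176a*, *Agtr1a*, *Sept4*, *Sdc1*, *Ifngr2* and *Tnfrsf21*, with log2 fold changes from 2.87 to 3.90 and adjusted p from 3.09e-05 to 0.00174. In all, 208 genes were higher and 238 lower in pericytes than in smooth muscle (235 and 294 without the mixed cells). The counts fell to 91 higher and 106 lower without control 1, to 122 and 171 without control 2 and to 75 and 106 without injury 1, which also lowers the number of sums. With library totals in place of TMM factors the split was 269 higher and 190 lower, since this scaling raised the median log2 fold change of all genes by 0.13.

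Contractile genes divided the mural gates. Of 26 tested, 22 were lower in pericytes than in smooth muscle and none was higher (median log2 fold change -2.03), while 23 were higher than in endothelial cells and 19 higher than in fibroblasts. The shares over all genes were 6.2% lower than in smooth muscle, 20.1% higher than in endothelial cells and 12.2% higher than in fibroblasts. *Myh11* was limited by the gate, so part of this order was set by the choice of the cells. *Acta2*, smooth muscle actin, stood at 3070.4, 2855, 2236 and 1458 CPM in pericytes, 15717, 11538 and 14714 CPM in smooth muscle and 13.8 ± 2.13 CPM in endothelial cells (SD, n = 4). The pericyte sums lay between those gates in each of the 3 libraries with a smooth muscle sum, below smooth muscle (log2 fold change -2.55 ± 0.18, adjusted p = 6.66e-07) and above endothelium (log2 fold change 7.19 ± 0.22, adjusted p = 5.59e-12). *Myl9*, a myosin light chain, followed the same order at 3612, 2334, 3383 and 1409.9 CPM against 9959.6, 8424 and 9762 CPM in smooth muscle (log2 fold change -1.79 ± 0.31, adjusted p = 0.00114). *Tpm2*, a tropomyosin, was at 903 ± 210.1 against 3871 ± 418 CPM (log2 fold change -2.09 ± 0.25, adjusted p = 5.22e-05). *Cnn1*, calponin, was at 0 in the pericytes of control 1 and injury 1, at 237 CPM in control 2 and 115 CPM in injury 2, and at 191, 244 and 302 CPM in smooth muscle (log2 fold change -2.89 ± 0.90, adjusted p = 0.0756).

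The intermediate sum hid an uneven spread over cells. *Acta2* and *Tagln* together had 0 UMIs in 93 of the 201 pericytes, 1 to 9 in 57 and 10 or more in 51 (25.4%), with 8 cells between 8 and 12 UMIs. Cells with 10 or more were found in every library, 20, 6, 20 and 5 of them. In the smooth muscle gate 116 of 117 cells had 10 or more. Because 10 UMIs is a limit on a continuous value, the groups on its 2 sides are ranges and not cell types. Among the unmixed cells of control 1, the 19 with 10 or more UMIs had *Kcnj8* at 113 CPM and the 49 with fewer at 1145 CPM. In injury 1 the values were 0 in 16 cells and 902 CPM in 69 cells. *Kcnj8* was thus lower in the cells high in *Acta2* and *Tagln* in both libraries. Of the other libraries, with 5 unmixed cells each, control 2 went the other way, at 726 CPM in 3 cells against 466 CPM in 2, and injury 2 had 55.8 CPM in 4 cells against 438 CPM in 1. In control 1 and injury 1 *Vtn* was also lower in the cells with 10 or more UMIs, at 1227 against 2703 CPM in control 1 and 913 against 3748 CPM in injury 1, as did *Art3* at 339.8 against 989.7 and 101 against 486 CPM. *Rgs5* was similar on both sides, at 9836 against 9301 CPM and 6774 against 6876 CPM. *Higd1b* was also similar, at 1812 against 1585 CPM and 1674 against 1402 CPM. On the high side lay *Sncg*, a synuclein found in vascular smooth muscle, at 547 against 101 CPM and 837 against 56.4 CPM. As *Kcnj8* and *Higd1b* each could admit a cell, cells with *Higd1b* and without *Kcnj8* entered the same gate. These are descriptions without a test.

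**Figure D4:**
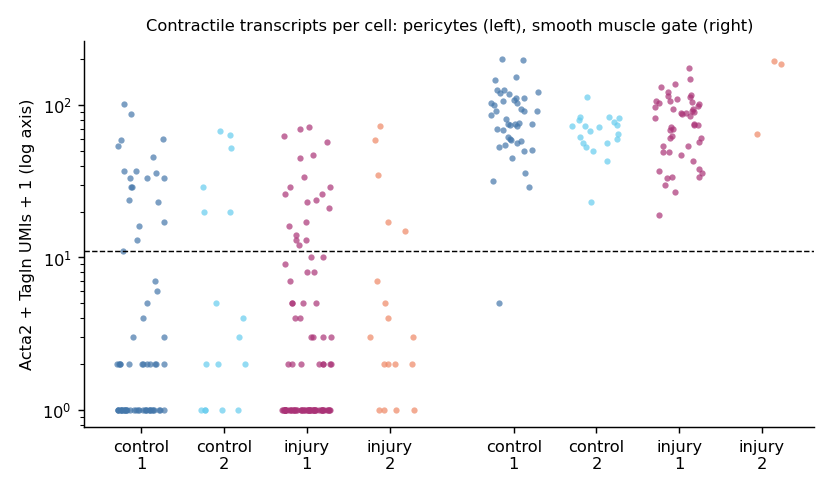
Each point is a cell; the vertical log axis gives its Acta2 and Tagln UMIs plus 1, for the pericytes (left) and the smooth muscle gate (right) of each library, with a dashed line at 10 UMIs. Pericytes spread from 0 to 101 UMIs, with 51 of 201 on or above the line, against 116 of 117 smooth muscle cells.

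Vasoactive receptors and their cyclic nucleotide signalling were measured by a list of 50 genes, of which 19 could be tested. Pericytes were higher than endothelial cells for 14 and lower for 4 of them, and higher than fibroblasts for 11 and lower for 1, where all genes gave 20.1% higher and 21.4% lower against endothelium and 12.2% and 13% against fibroblasts. *Agtr1a*, the type 1 angiotensin II receptor, stood at 486, 237, 472 and 115 CPM in pericytes and 59.3, 13.5 and 21.6 CPM in smooth muscle (log2 fold change 3.39 ± 0.49, adjusted p = 0.000314). *Adra2a*, an alpha-2 adrenergic receptor coupled to inhibition of cyclic AMP, was at 146, 142, 163 and 67.1 CPM in pericytes and had 2 UMIs in smooth muscle against 70, a ratio of 31.6-fold, with an exact 95% counting interval of 8.44 to 266. *P2ry14*, the receptor for UDP-sugars, was at 419.5, 110.4, 406 and 67.1 CPM against 138, 40.6 and 80.9 CPM (log2 fold change 1.60 ± 0.42, adjusted p = 0.0223). These were the 3 members of 19 higher in pericytes than in smooth muscle, and 2 were lower, beside 5.42% and 6.2% of all genes. *Enpep*, a peptidase that processes angiotensins, was higher as well, at 188, 78.9, 83.8 and 76.7 CPM against 6.59, 0 and 27.0 CPM (log2 fold change 2.82 ± 0.70, adjusted p = 0.0152). Lower than in smooth muscle were *Pde3a*, a cyclic nucleotide phosphodiesterase (log2 fold change -1.35 ± 0.39, adjusted p = 0.0359), and *Ramp1*, a subunit of the CGRP receptor (log2 fold change -1.95 ± 0.39, adjusted p = 0.00416), and neither call held without control 1 or without injury 1. The endothelin receptor *Ednra* was at 134, 78.9, 115 and 57.5 CPM in pericytes and at 125, 135 and 64.7 CPM in smooth muscle (log2 fold change 0.04 ± 0.41, adjusted p = 0.985), and no *Ednra* UMI was found in the endothelial sums, so pericytes were at least 74.4-fold higher, with the floor set at 3 UMIs over the group. Guanylate cyclase, the receptor of nitric oxide, is made of *Gucy1a3* and *Gucy1b3*, which stood at 227 ± 119 and 386 ± 213 CPM in pericytes and at 487 ± 153 and 285 ± 106 CPM in smooth muscle.

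Among potassium and calcium channels and pumps, 7 of 28 could be tested, and 4 were lower in pericytes than in smooth muscle, *Kcna5*, *Atp2a2*, *Atp2b1* and *Atp2b4* (1 without injury 1), beside 6.2% of all genes. *Kcna5*, a voltage-gated channel of arterial muscle, was at 85.1, 15.8, 44.1 and 38.4 CPM in pericytes and 356, 325 and 297 CPM in smooth muscle (log2 fold change -2.75 ± 0.31, adjusted p = 3.43e-05). *Kcne4*, an accessory subunit, was at 620.2, 394, 737 and 192 CPM in pericytes and 382, 176 and 264 CPM in smooth muscle (log2 fold change 0.89 ± 0.36, adjusted p = 0.135), while in endothelial cells it was at 1.28 ± 1.61 CPM (log2 fold change 7.37 ± 0.53, adjusted p = 3.36e-08). Of the RGS family, which the gate used through *Rgs5*, *Rgs16* stood at 948, 284, 1072 and 153 CPM in pericytes and 39.5, 27.1 and 53.9 CPM in smooth muscle (log2 fold change 3.90 ± 0.59, adjusted p = 0.00038), with endothelial cells at 531 ± 198 CPM. *Rgs4* was at 1155, 126, 873 and 269 CPM in pericytes and at 810.2, 1043 and 917 CPM in smooth muscle (log2 fold change -0.66 ± 0.46, adjusted p = 0.44). Both *Rgs16* and *Rgs4* were lower in control 2 and injury 2 than in the other libraries, and stood at 962, 248.7, 1196 and 133 CPM and 1159.8, 435, 992 and 534 CPM in the unmixed cells.

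A pair of mitochondrial paralogs was abundant in both mural gates. *Ndufa4l2*, an isoform of a cytochrome oxidase subunit that hypoxia induces, was at 2043, 852, 1579 and 643 CPM in pericytes and 1126, 785 and 906 CPM in smooth muscle (log2 fold change 0.52 ± 0.29, adjusted p = 0.323), against 0, 3.35, 2.21 and 3.56 CPM in endothelial cells (log2 fold change 8.26 ± 0.42, adjusted p = 2.12e-09). *Cox4i2*, the hypoxia-regulated isoform of subunit 4, was at 1307, 347, 931 and 412 CPM in pericytes and 744, 772 and 696 CPM in smooth muscle (log2 fold change 0.04 ± 0.30, adjusted p = 0.973). No *Cox4i2* UMI was found in fibroblasts, so pericytes were at least 185-fold higher. The general paralog *Ndufa4* went the other way, at 97.3, 347, 221 and 403 CPM in pericytes, and was lower than in smooth muscle (log2 fold change -1.63 ± 0.32, adjusted p = 0.00355), endothelial cells (log2 fold change -1.52 ± 0.29, adjusted p = 0.000458) and fibroblasts (log2 fold change -1.44 ± 0.29, adjusted p = 0.00194). No difference from smooth muscle passed the test for *Ndufa4l2* or *Cox4i2*, and the pericyte sum had the lowest *Ndufa4* of the gates compared in every library. Of 12 tested respiratory chain genes, 4 were lower in pericytes than in smooth muscle and none was higher, beside 6.2% and 5.42% of all genes. Besides *Ndufa4* these were *Cox6a1*, *Cox7a2* and *Cox8a*, with log2 fold changes of -0.83, -0.73 and -0.76. Of 12 tested genes of hypoxia and glycolysis, none was called against smooth muscle, 2 were higher and 5 lower than in endothelial cells, and 4 were higher than in fibroblasts (1 without control 1 or without injury 1). Over all genes 20.1% were higher and 21.4% lower than in endothelial cells and 12.2% higher than in fibroblasts.

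Genes of antigen presentation and the interferon response were compared next. Of 24 tested, 8 were higher in pericytes than in smooth muscle and none was lower (median 1.41; 5 higher without control 2 and 5 without injury 1), whereas 19 were lower than in endothelial cells and 1 higher (median -1.59), beside 5.42% of all genes higher than in smooth muscle and 21.4% lower than in endothelium. The 5 genes called both above smooth muscle and below endothelium were *B2m*, H2-D1, H2-K1, *Ifitm3* and *Irf9*, while *Ifitm1* was above both. *B2m*, the light chain of MHC class I, stood at 2681, 2587, 1835 and 2551 CPM in pericytes, 632, 542 and 529 CPM in smooth muscle and 5357, 3663, 3814 and 4091 CPM in endothelial cells. The pericyte level was above smooth muscle (log2 fold change 2.05 ± 0.28, adjusted p = 0.000196) and below endothelium (log2 fold change -0.91 ± 0.23, adjusted p = 0.00441). Its heavy chain gene H2-D1 kept this order, at 1114 ± 392 CPM in pericytes against 357 ± 122 and 2370 ± 732 CPM. Against fibroblasts 1 gene was higher and 4 were lower, and 10 were lower without the mixed cells, beside 12.2% of all genes higher and 13% lower.

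Of 24 tested cytokines, chemokines and acute phase genes, 4 were higher in pericytes than in smooth muscle, *Ccl11*, *Cxcl1*, *Il34* and *Tnfrsf1a* (1 without control 1 and 2 without control 2). Against fibroblasts 10 were lower and 1 higher. All genes gave 5.42% higher than in smooth muscle, and 13% lower and 12.2% higher than in fibroblasts. *Il34*, a ligand of the macrophage CSF1 receptor, was at 572, 221, 454 and 173 CPM in pericytes, 119, 122 and 156 CPM in smooth muscle and 104, 119, 61.7 and 79.8 CPM in fibroblasts, and was the cytokine higher in pericytes than in fibroblasts (log2 fold change 1.73 ± 0.28, adjusted p = 0.000357). It was also higher than in smooth muscle (log2 fold change 1.5039 ± 0.30, adjusted p = 0.00356) and endothelium (log2 fold change 6.9990 ± 0.41, adjusted p = 6.01e-09). *Cxcl1*, a neutrophil chemoattractant, was uneven at 827, 158, 1398 and 259 CPM, with control 1 and injury 1 above the others. *Ccl11*, eotaxin, was at 139.8, 299.7, 216 and 125 CPM in pericytes, above smooth muscle (log2 fold change 3.49 ± 0.54, adjusted p = 0.000436) but far below the 1548 ± 671 CPM of fibroblasts (log2 fold change -3.15 ± 0.30, adjusted p = 3.25e-06).

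Signalling genes between endothelium and mural cells gave 5 higher and 4 lower of 29 tested against smooth muscle (1 and 1 without control 1), with a median log2 fold change of 0.49, or 0.29 with genes at 0 set at their floor, beside 5.42% of all genes higher and 6.2% lower. *Nrp1*, a coreceptor for VEGF and semaphorins, was at 565, 505, 441 and 451 CPM in pericytes and 26.3, 94.8 and 80.9 CPM in smooth muscle (log2 fold change 2.77 ± 0.33, adjusted p = 5.23e-05), beside 514 ± 85.8 CPM in endothelial cells, a difference that did not pass the test (log2 fold change -0.15 ± 0.22, adjusted p = 0.634). *Hes1*, a Notch target, was lower than in smooth muscle (log2 fold change -1.42 ± 0.30, adjusted p = 0.00569) while *Heyl* was higher. The neurotrophin gene *Ntf3* was lower in pericytes, at 36.5, 0, 13.2 and 0 CPM against 171, 122 and 124 CPM (log2 fold change -3.05 ± 0.66, adjusted p = 0.0113). *Angpt2*, the vessel-destabilising ligand of the Tie2 receptor, was higher than in endothelial cells (log2 fold change 2.85 ± 0.54, adjusted p = 0.00045). The gap junction gene *Gja4* stood at 803, 284, 459 and 269 CPM in pericytes and 665, 460.4 and 599 CPM in smooth muscle (log2 fold change -0.39 ± 0.28, adjusted p = 0.461), with 1 UMI in fibroblasts against 282, a ratio of 319-fold, with an exact 95% counting interval of 56.8 to 12641.

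In the matrix lists, pericytes lay well below fibroblasts in fibrillar collagens. Of 19 tested genes of this list 16 were lower than in fibroblasts and 1 higher (median -2.15), while 13 of 21 were higher than in endothelial cells, beside 13% of all genes lower than in fibroblasts and 20.1% higher than in endothelium. *Col1a1* followed the mixed cells, at 18.2, 379, 13.2 and 508 CPM in pericytes and 18.5, 62.2, 16.5 and 133 CPM without them. *Col3a1* did so less, at 626, 1561, 348 and 662 CPM and 635, 622, 386 and 1067 CPM. Of 15 tested basement membrane genes 2 were higher than in smooth muscle, *Vtn* and *Sparc*, and *Lamb2* was lower (log2 fold change -1.03 ± 0.32, adjusted p = 0.0468, a call that was lost when control 1, control 2 or injury 1 was left out), beside 5.42% of all genes higher and 6.2% lower. Without the mixed cells 4 were higher and 2 lower. *Sparc*, a matricellular protein, stood at 2869.8, 4669, 3321 and 4431 CPM in pericytes and 981, 1788 and 1753 CPM in smooth muscle (log2 fold change 1.23 ± 0.18, adjusted p = 0.000363). *Col4a2*, a chain of collagen IV, was at 134, 142, 207 and 144 CPM in pericytes and higher than in endothelial cells (log2 fold change 0.71 ± 0.25, adjusted p = 0.0291) and fibroblasts (log2 fold change 0.99 ± 0.29, adjusted p = 0.0204). Against fibroblasts 5 basement membrane genes were higher and 7 lower (4 lower without control 1), beside 12.2% and 13% of all genes, the lower ones including *Sparc* (log2 fold change -0.58 ± 0.16, adjusted p = 0.0138), *Nid1*, *Lama2* and *Lamc1*. Of 20 transporters known from brain pericytes 6 could be tested. None was called against smooth muscle, beside 5.42% of all genes higher and 6.2% lower. Against endothelial cells 3 were higher and 1 lower, beside 20.1% and 21.4% of all genes. Against fibroblasts 2 were higher and 1 lower, beside 12.2% and 13% of all genes.

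Against endothelial cells 771 genes were higher and 820 lower (704 and 847 without the mixed cells), and against fibroblasts 470 and 499 (512 and 648). With library totals in place of TMM factors the endothelial split turned to 895 higher and 716 lower. The fibroblast counts were 296 higher and 296 lower without control 1 and 288 and 333 without injury 1, and with library totals the split was 673 higher and 366 lower, this scaling raising the median of all genes by 0.17. Beside the genes above, those leading against endothelium were *Aspn*, *Nrip2*, *Prrx1*, *Serpini1*, *Fhl2* and *Tpm2*. *Aspn*, asporin, a matrix proteoglycan, was at 705, 394, 595 and 432 CPM in pericytes with 3 endothelial UMIs against 321, a ratio of 405-fold, with an exact 95% counting interval of 137 to 1974. *Prrx1*, a mesenchymal homeobox factor, was at 164, 299.7, 278 and 288 CPM, with 2 endothelial UMIs against 139 (263-fold, with an exact 95% counting interval of 71.4 to 2193). Against fibroblasts *Esam* and *Serpini1* had no fibroblast UMI, which made pericytes at least 87.1-fold and 78.8-fold higher. *Esam*, an adhesion molecule best known from endothelium, was at 505, 221, 498 and 201 CPM in pericytes. *Tinagl1*, a matrix protein, was at 772, 394, 662 and 192 CPM against 13.0, 8.52, 0 and 3.801 CPM in fibroblasts (log2 fold change 5.96 ± 0.46, adjusted p = 4.47e-07). Of the 12 endothelial markers, all 12 were lower in pericytes than in endothelial cells, beside 21.4% of all genes. Against smooth muscle 2 of the 12 were higher, *Emcn* and *Pltp*, and none was lower, beside 5.42% and 6.2% of all genes. *Emcn* (endomucin) had 75 UMIs in pericytes and 0 in smooth muscle of the same libraries, at least 22.6-fold more. *Flt1* and *Kdr* had 3 and 0 UMIs in these pericytes. Over the pooled libraries *Emcn* stood at 143 CPM in pericytes and 1173 CPM in endothelial cells.

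**Figure D5:**
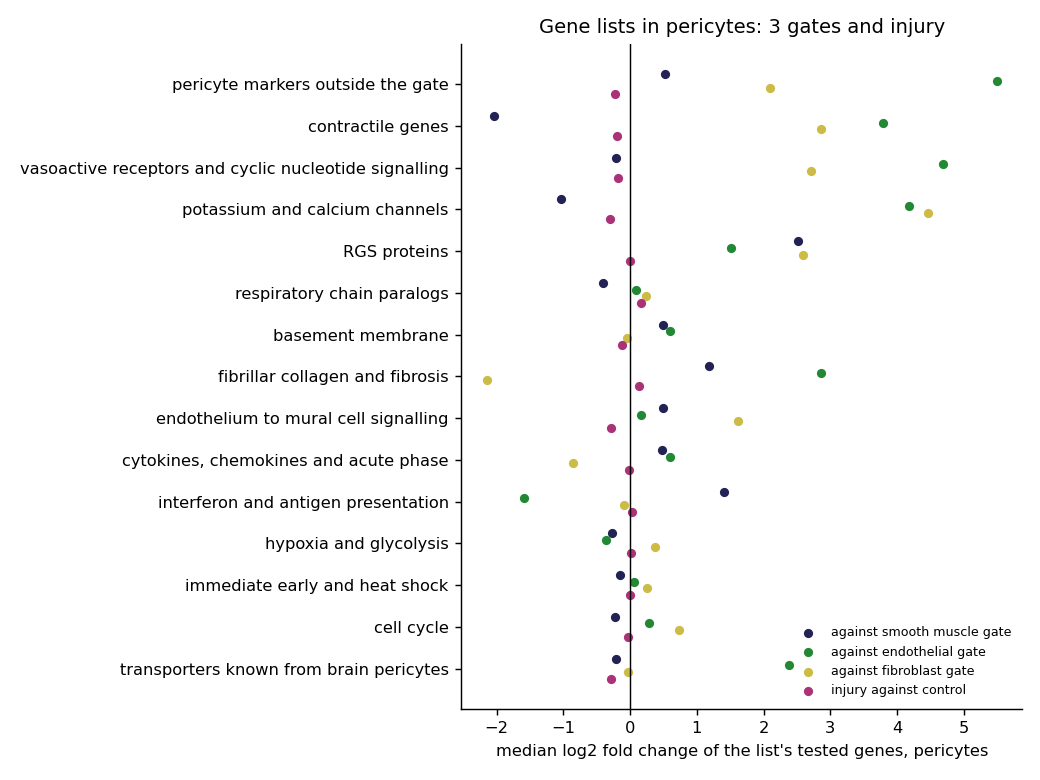
Each point is the median log2 fold change of the tested genes of a list (lists of other cell types are not drawn), for pericytes against each comparison gate and for injury against control. Contractile genes lie at -2.03 against smooth muscle and at 3.79 and 2.86 against endothelium and fibroblasts (2.33 for the last with genes at 0 set at their floor), and the injury medians of the lists drawn lie between -0.30 and 0.16.

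To ask how pericytes responded to nerve injury, the 4 pericyte sums were compared, with 2410 genes tested beside 5 gate genes. No gene was called (0% of genes, the smallest adjusted p being 1.00), and 27 genes (1.12%) had an unadjusted p under 0.05. DESeq2 called 0 genes as well. None of the 29 tested pericyte markers, 19 contractile genes, 13 vasoactive genes, 14 interferon genes or 23 immediate early and heat shock genes was called, with median log2 fold changes of -0.23, -0.19, -0.19, 0.03 and -0.01 beside 0.02 over all genes. Without the mixed cells the marker and contractile medians were 0.004 and -0.002. With each library left out, the medians spanned 0 for 4 of the 5 lists. That of the markers ran from -1.003 without injury 1 to 0.41 without control 1, that of the contractile genes from -0.726 without injury 1 to -0.005 without injury 2, and that of the vasoactive genes from -0.798 without injury 1 to 0.291 without control 1. For the interferon genes it ran from -0.247 without injury 2 to 0.277 without injury 1, and for the immediate early and heat shock genes from -1.327 without injury 1 to 0.829 without control 1. The 3 tested Schwann genes had a median of 2.42 and the 6 tested macrophage genes one of 1.19, all 9 with positive fold changes and the 3 Schwann genes with an unadjusted p under 0.05, and their part in the pericyte values was not tested. The sums of control 2 and injury 2 rest on 17 and 18 cells, and a missed call does not show that a gene stayed the same.

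The errors show what these libraries could resolve. The injury fold change of *Vtn* was 0.09 ± 0.76 (log2, SE), that of *Acta2* -0.61 ± 0.36, that of *Pdgfrb* -0.56 ± 0.35 and that of *Heyl* 0.29 ± 0.34, each with an adjusted p of 1.00 in edgeR's test. In the unmixed cells *Acta2* stood at 2992, 5844, 2249.6 and 6360.1 CPM, high in control 2 and injury 2, where 5 cells each remained. *Fos*, an immediate early transcription factor, stood at 9813, 3549, 11167 and 3942 CPM, high in control 1 and injury 1 and low in control 2 and injury 2 in either condition. *Junb* followed with 7102, 2539, 7149 and 1649.7 CPM. *Hspa1a*, an inducible heat shock protein, was at 3314, 1199, 1403 and 691 CPM and higher in pericytes than in all 3 gates, by 1.78 ± 0.42 against smooth muscle (adjusted p = 0.0113, a call lost without control 1 or without injury 1), 2.63 ± 0.39 against endothelium and 4.03 ± 0.45 against fibroblasts. Of 23 tested genes of this immediate early and heat shock list, 3 were higher and 2 lower than in smooth muscle (0 higher without control 1 or without injury 1, and 4 lower without the mixed cells), beside 5.42% and 6.2% of all genes. Cell cycle genes were mostly too low to test, with 4 of 23 tested. *Mki67*, a proliferation marker, had UMIs in 3 of the 201 pericytes, and in none of the 163 unmixed cells. *Ccnd1*, cyclin D1, was at 328, 299.7, 146 and 278 CPM and higher in pericytes than in smooth muscle (log2 fold change 2.06 ± 0.40, adjusted p = 0.00301), whereas *Ccnd2*, cyclin D2, was lower, at 261, 252, 256 and 239.8 CPM against 606, 691 and 609 CPM (log2 fold change -1.45 ± 0.20, adjusted p = 0.000166). These were the calls among the 4 tested, beside 5.42% of all genes higher and 6.2% lower.

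Of the genes with low unadjusted p, 9 are given as values, since none passed the test. *Ifi27l2a*, an interferon-induced gene, was at 18.2, 78.9, 282 and 249.4 CPM (log2 fold change 2.80 ± 0.66) and at 18.5, 0, 27.6 and 89.0 CPM in the unmixed cells, and was called only without the filter on low counts (adjusted p = 0.00617). *Lgmn*, a lysosomal protease, *Evi5* and *Gadd45a* had log2 fold changes of 2.02, 1.76 and 2.19, and in the unmixed cells the conditions overlapped for *Evi5* and *Gadd45a*. On the lower side *Nrp2*, a semaphorin coreceptor, was at 91.2, 142, 17.6 and 9.59 CPM (-2.82 ± 0.86) and at 92.5, 373, 22.1 and 0 CPM in the unmixed cells. *Cyr61*, a matricellular protein, was at 620.2, 647, 357 and 211 CPM (-1.07 ± 0.38), with no overlap between the conditions. *Gipc1*, *Iigp1* and *Mir143hg* had log2 fold changes of -1.73, -1.23 and -1.23. In the unmixed cells the conditions overlapped for *Iigp1*, at 426, 124, 209.5 and 178 CPM, and for *Mir143hg*, at 136, 62.2, 71.7 and 89.0 CPM. All 9 genes had an adjusted p of 1.00.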

How the data were processed

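Dissociated ganglia were profiled with 10x Genomics 3′ libraries. The authors deposited matrices of UMI counts (genes by barcodes) made with Cell Ranger (mm10), with 1294 to 2509 barcodes per library. The paper describes the deposited matrix as filtered. These matrices hold no cell names and had not passed the cell limits of the methods. The limits were applied here with the values the methods give, but to UMIs where the methods name reads per cell. The 6095 cells kept here were fewer than the number the paper reports after its filtering. The members, gates and gene lists were chosen with earlier results of these data known. UMIs were summed per library and gate (at least 5 cells per sum) and fitted with edgeR 4.0.16 (TMM, filterByExpr, quasi-likelihood test, Benjamini-Hochberg adjustment over all genes tested), with DESeq2 1.42.0 as an alternative, in R 4.3.3. SE is the log2 fold change divided by the square root of F. The injury fit used the 4 pericyte sums, and the fit between gates used 15 sums with the library as a term. The code was tested on simulated data. CPM values are UMIs scaled to the total of a sum. Since 3′ counting takes 1 tag per molecule, no length correction was made and levels are compared within a gene. Libraries are described as biological replicates of pooled mice, with no record here of which mice entered each. The p-values of the injury fit therefore measure the spread between these libraries. Those of the fit between gates measure the spread that remains after the library term, estimated for each gene over all gates together. Named genes were the gate genes, the listed genes at 100 CPM or more or past the test, the 5 lowest p in each direction for injury, and the 15 largest called fold changes against each gate. Some genes that this rule names are not reported here. Doublets were not removed from the results as given. Other marker minimums, scaling, filters, each library left out, the mixed cells left out and a smooth muscle gate open to *Higd1b* were tried as alternatives.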

Additional observations from a re-analysis of the deposited data

Results flagged for a closer look

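The gene part of the pericyte gate was also met by 4 cells outside the limits on UMIs, genes or mitochondrial share, which entered no comparison. They came from control 1 (995 UMIs, 18.8% mitochondrial), control 2 (5005 UMIs, 10.5% mitochondrial, and 28385 UMIs with 6011 genes) and injury 1 (1480 UMIs, 10.1% mitochondrial), and none from injury 2.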

How the results depend on the processing

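The sums of control 2 and injury 2 rest on few and mostly mixed cells, which limits the injury comparison. The injury test called 0 genes in every alternative (0 to 0 with each library left out) except without the filter on low counts, where 20 genes were called. Of these, 18 had most of their UMIs in injury 2, 13 had over 90% in 1 library, and 6 were erythroid genes. Among the 20, 5 were also tested with the filter on, without being called, including *Ifi27l2a*, which without the filter had an adjusted p of 0.00617 (edgeR), with 3, 5, 64 and 26 UMIs in the 4 libraries and 3, 0, 5 and 2 in the unmixed cells. The genes called higher in pericytes ranged from 75 to 190 against smooth muscle, 625 to 698 against endothelium and 288 to 440 against fibroblasts with each library left out (each such fit has fewer sums). With a log2 fold change of 2 or more required, the counts were 98, 403 and 228. With library totals in place of TMM, 269 genes were higher and 190 lower than in smooth muscle, and 673 and 366 than in fibroblasts. Against endothelium this scaling gave 895 higher and 716 lower. The share difference ranged from -2.43 to 1.61 points with each library left out. The replicate block left the injury count at 0 and the share difference at -0.409 points; the labels do not say that equal numbers share a batch, and the deviations of control 2 and injury 2 from their group means correlated at 0.611 across genes, which are not independent. The alternatives without mixed cells and with the open smooth muscle gate were chosen after seeing the data.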
